A study of Bos taurus with 12 samples.

Results

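Transcription factors that lay out the body plan and fix cell fates (T-box, paired box, SOX, forkhead, GATA, LIM, NK, sine oculis, distal-less, Iroquois, MEIS, PBX, Runt, Krüppel-like, AP-2, ZIC and OTX proteins) were followed through the CpG sites listed as differentially methylated between young and old bovine fibroblasts. A listed site was taken when the symbol of its promoter, exon or intron began with the name of 1 of 19 such families, HOX genes being left out. The rule found 116 positions in 53 genes, of 14094 listed positions, of which 4414 carried a gene symbol from 2293 genes, and of 838705 tested positions. Sites came from 17 of the families, and engrailed and MEF2 genes had none. The list holds positions with an unadjusted P below 0.05 in the comparison of ages and a mean difference of about 10 percentage points or more. The sites were thus chosen by the very young minus old values described below, and no test was made on them.

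Reduced representation bisulfite sequencing (RRBS) was performed on DNA of 12 unstimulated cultures of primary dermal fibroblasts at passage 6, grown from skin that 6 Holstein heifers gave at 5 months (young cultures) and again when they were 16 months old (old cultures). There was 1 culture per animal and age, so the young minus old difference was taken within each animal. Per the methods, the animals were chosen among those with a middling cytokine response, and cultures were revived from frozen stocks. The fibroblast identity could not be checked against marker genes, because no expression values were used here. In DNA from a whole culture, a different mix of cells and a different methylation within the cells cannot be told apart.

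Genes of these families commonly lie in CpG-rich regions that stay free of methylation in most tissues, also where the gene is silent and held by Polycomb proteins. Methylation of such regions can mark the lineage of a cell, its time in culture and its age. Skin fibroblasts keep the expression of several patterning factors that reflect where in the body they arose. RRBS reads the cytosines near MspI cuts, and the methylation ratio at a position is the share of its reads that kept the cytosine.

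The depth behind the values was modest. Tested positions carried 25962640 to 28820145 reads per young culture and 19007741 to 31643295 per old culture. The mean coverage of the 116 positions over all cultures had a median of 12.1 reads, and 16 positions (13.8%) had at least 10 reads in every culture. This share was 16.5% at the listed sites of other genes, 20.3% over the list and 32.6% over tested positions. Even read numbers in each of the 12 cultures were seen at 15 positions (12.9%), against 18.5% at the listed sites of other genes. The authors counted overlapping mates as 2 reads, and the part of this in the values was not tested.

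The young cultures had the higher ratio at 87 of the 116 positions, in 43 genes, and the old cultures at 29, in 20 genes. Young cultures were thus higher at 75% of the sites, beside 67.4% of the 4298 listed sites of other genes and 66.3% of the whole list. Over all tested positions, 1.68% were called by the same paired comparison (P below 0.05 and at least 10 points), 1.12% with more methylation in young cultures and 0.567% with more in old cultures. The recomputed comparison called 114 of the 116, the others being 1 site each of FOXN1 and MEIS2. The rule took the sites from this contrast, so nothing is read from these shares. No tested site passed Benjamini-Hochberg adjustment by the paired test of the methods, with 24094 sites at an unadjusted P below 0.05. Limma and a quasi-binomial model gave 0 adjusted calls as well, from 28425 and 19755 unadjusted ones. An unpaired test gave 1 adjusted call over all positions, from 24161 unadjusted ones, and 0 among the 116.

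The median size of the difference was 18.5 points, beside 18.7 points at the listed sites of other genes. Differences ran from 10 to 49.5 points, and 21 (18.1%) reached 25 points, against 26% for other genes. The levels differed more than the sizes. The median of the mean ratios was 29.2% in young and 14.6% in old cultures, whereas it was 46.2% and 32% at the listed sites of other genes. At 40 positions (34.5%) the mean of the less methylated age was at most 5%, against 15.4% for other genes. Among all tested positions the share was 59.9%, with median means of 3.00% in young and 2.83% in old cultures. Low levels were thus less common in the set than over the tested positions.

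**Figure D1:**
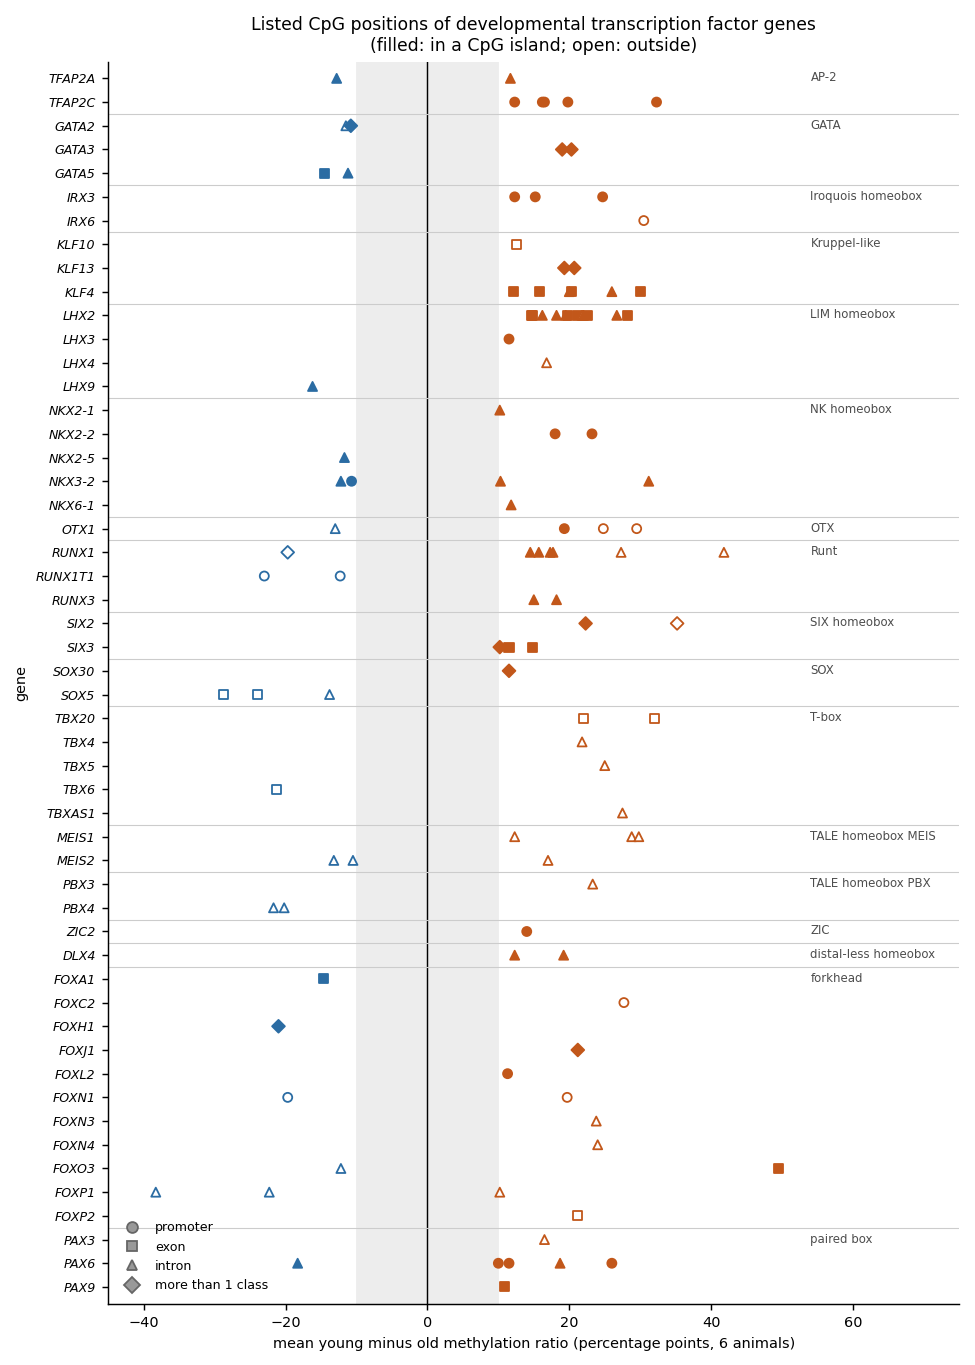
Mean young minus old methylation ratio (percentage points over 6 animals, horizontal axis) of 114 of the 116 listed positions, by gene within its family (vertical axis, 52 of the 53 genes), with the grey band marking differences under 10 points. Marker shape gives the annotation class and filled markers lie in CpG islands. TBXAS1 stands with the T-box genes by its symbol alone, and FOXO3, FOXP1 and RUNX1 are among the genes with sites on both sides of 0.

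By gene, 33 had sites only more methylated in young cultures, 10 only sites more methylated in old cultures and 10 had both. Among the genes of the last group were FOXN1, FOXO3, FOXP1, MEIS2, NKX3-2, OTX1, PAX6, RUNX1 and TFAP2A. Genes with more methylation only in old cultures were FOXA1, FOXH1, GATA2, GATA5, LHX9, NKX2-5, PBX4, RUNX1T1, SOX5 and TBX6. A single site stood for 25 genes. Of the 28 genes with several sites, 18 (64.3%) had them in 1 direction, beside 60.8% of 882 other genes.

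Sites of a gene were often neighbours on the same DNA fragments and then shared reads. Grouped at 100 bp, the 116 positions made 78 loci, and 63 positions lay in 25 loci with several sites. In 23 of these loci all sites went in 1 direction. The exceptions were in an NKX3-2 intron and in the promoter of FOXN1, a factor of thymus epithelium and hair, where 20546497 on chromosome 19 was 19.7 points higher in old cultures and 20546571 was 19.7 points higher in young cultures.

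LIM homeobox factors direct forebrain, pituitary, limb and gonad formation, and LHX2 also acts in hair follicle stem cells. LHX2 had the most sites of any gene in the set, 12, all more methylated in young cultures by 14.7 to 28.2 points. They lay in a stretch of 36 bp in an exon on chromosome 11 (95128351 to 95128386, 6 sites, all on the minus strand) and in a stretch of 68 bp in an intron (95130295 to 95130362, 6 sites).

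The largest LHX2 difference was at 95128357 in the exon, where the ratio had a lowest value of 0%, a median of 39.0% and a highest value of 80% in young cultures. In old cultures the lowest, median and highest ratios were 0%, 9.50% and 18%. The means were 38.0% ± 27.2 (young) and 9.83% ± 6.49 (old; SD, n = 6), a difference of 28.2 points with a mean coverage of 20.6 reads. Young cultures 2 and 3 were within or close to the old range, so the groups overlapped, and 5 of 6 animals were higher when young. The partner cytosine on the plus strand differed by 1.67 points, far less than the listed strand, and with the reads of both strands merged the difference was 15.9 points.

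At 95128362, 5 bp away, the young cultures ran from 14% over a median of 25% to 29% and the old cultures from 0% over 2.50% to 9%. This was the LHX2 site whose groups did not overlap, with 23.3% ± 5.47 (young) and 3.50% ± 4.04 (old; SD, n = 6) and a mean coverage of 10.9 reads. Groups of 6 did not overlap at 11 of the 116 positions (9.48%), beside 6.64% of the list and 0.123% of tested positions.

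In the intron, 95130319 had at least 10 reads in every culture. Its lowest, median and highest ratios were 25%, 35.0% and 46% in young cultures against 0%, 4.50% and 25% in old cultures. The means were 36.0% ± 9.19 and 9.33% ± 11.6 (SD, n = 6), 26.7 points apart. Old culture 4 reached the level of the lowest young culture, and all 6 animals were higher when young. Here the partner strand was itself listed, with 22.0 points.

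All tested positions of both LHX2 stretches went the same way, listed or not. The exon stretch held 4 unlisted positions with a mean of 3.88 points and the intron stretch 6 with a mean of 12.9 points, each of the 10 higher in young cultures. Averaged over its 10 tested positions, the exon stretch ran from 12.9% to 30.1% in young cultures and from 2.00% to 10% in old cultures, and these ranges did not overlap. Over the 12 positions of the intron stretch the young cultures ran from 22.8% to 47.9% and the old ones from 12.5% to 35.4%, with overlap. Each average holds 6 listed sites, which were chosen by this contrast, so nothing is read from the gap between the ages. Among the other LIM genes, which specify pituitary and motor neuron cells, LHX3 (11.5 points, promoter) and LHX4 (16.8 points, intron) were more methylated in young cultures, and LHX9, a gonad factor, was 16.2 points higher in old cultures in an intron.

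Krüppel-like factors are zinc finger proteins, and KLF4 acts in epithelial barrier formation and in the reprogramming of fibroblasts to stem cells. KLF4 had 6 sites in a CpG island on chromosome 8 between 98845910 and 98846540, 2 in an intron and 4 in exons, all 12.2 to 30.0 points higher in young cultures. The largest difference was at 98845997, where young cultures ran from 33% over a median of 41.0% to 62% and old cultures from 0% over 16.0% to 31%. With 45.5% ± 11.8 against 15.5% ± 14.2 (SD, n = 6) and a mean coverage of 10.7 reads, no old culture reached a young one.

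The best covered KLF4 site was 98846540, with 14 to 34 reads per culture. Young cultures were at 6%, 10% and 38% (lowest, median, highest) and old cultures at 0%, 0% and 5%. The means were 16.7% ± 13.5 and 0.833% ± 2.04 (SD, n = 6). Old culture 4 was the only old culture with methylated reads, 1 of 141 old reads in all, and it stayed below every young culture. The partner strand differed by 4.17 points, and the merged strands by 10.3 points. At 98846184 all old cultures were at 0%, with 0 of 62 reads, which allows a ratio of up to 4.84% (3 reads, counting error only).

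The 10 unlisted positions between the first and last KLF4 sites were all higher in young cultures, by 8.95 points on average. Over all 16 tested positions the stretch stood at 20% ± 6.28 (young) and 6.62% ± 3.08 (old; SD, n = 6). This average holds the 6 listed sites, which were chosen by this contrast. KLF13 had 2 sites where its promoter and exon overlap, 20.7 and 19.3 points higher in young cultures. KLF10, induced by TGF-beta, was higher in young cultures by 12.5 points in an exon that was mostly methylated in both ages.

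AP-2 proteins act in neural crest, skin and, for TFAP2C, trophoblast and germ cells. TFAP2C had the most promoter sites, 5 in a CpG island on chromosome 13 between 59914285 and 59914590, all more methylated in young cultures by 12.3 to 32.3 points. At 59914300 the lowest, median and highest ratios were 20%, 48.5% and 59% in young cultures against 0%, 13.0% and 30% in old cultures, with means of 45.8% ± 14.1 and 13.5% ± 12.4 (SD, n = 6). Young culture 5 fell inside the old range, although every animal was higher when young. Its partner strand at 59914299 was listed too, with 16.2 points.

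At 59914497, with 10 to 46 reads per culture, young cultures ran from 12% over 19.0% to 50% and old cultures from 0% over 8% to 11%. The groups lay side by side without overlap, at 26.2% ± 17.3 and 6.33% ± 5.24 (SD, n = 6), on read numbers that were even throughout. The partner strand, unlisted, differed by 18 points in the same direction. Of the 16 unlisted positions within the promoter stretch, 10 were higher in young and 6 in old cultures, unlike in LHX2 and KLF4. TFAP2A had 1 intron site in each direction, 11.7 points higher in young and 12.8 points higher in old cultures, 758 bp apart.

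RUNX1, a Runt factor needed for blood stem cells that is also active in skin and mesenchyme, had 7 sites. Of these, 6 lay within 397 bp of an intron on chromosome 1 (148777663 to 148778059) and were 14.5 to 41.8 points higher in young cultures. The seventh, at 148948284 where promoter and intron annotations overlap, was 19.7 points higher in old cultures. At 148778025 the lowest, median and highest ratios were 40%, 60.0% and 100% in young cultures against 0%, 16.0% and 55% in old cultures. The means of 62.2% ± 22.6 and 20.3% ± 19.0 (SD, n = 6) differed by 41.8 points. Culture 5 was the highest in both ages, the groups overlapped through it, and every animal was higher when young.

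The 4 sites of the first RUNX1 cluster, 148777663 to 148777686, stood at 17.7% to 19.7% in young and 2.00% to 3.67% in old cultures. All 4 unlisted positions of the stretch were higher in young cultures, with a mean of 10.8 points. RUNX3 had 2 neighbouring intron sites, 18.2 and 15 points higher in young cultures. RUNX1T1 is a corepressor rather than a DNA-binding Runt factor and was taken by its symbol. Its 2 promoter sites were more methylated in old cultures, and at 74642101 on chromosome 14 young cultures ran from 8% over 14.5% to 22% and old cultures from 29% over 36.5% to 50%. The ages did not overlap there, with 14.5% ± 4.85 and 37.5% ± 9.27 (SD, n = 6) on a mean coverage of 9.67 reads, and a single unlisted neighbour within 250 bp was 16.2 points higher in old cultures as well.

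**Figure D2:**
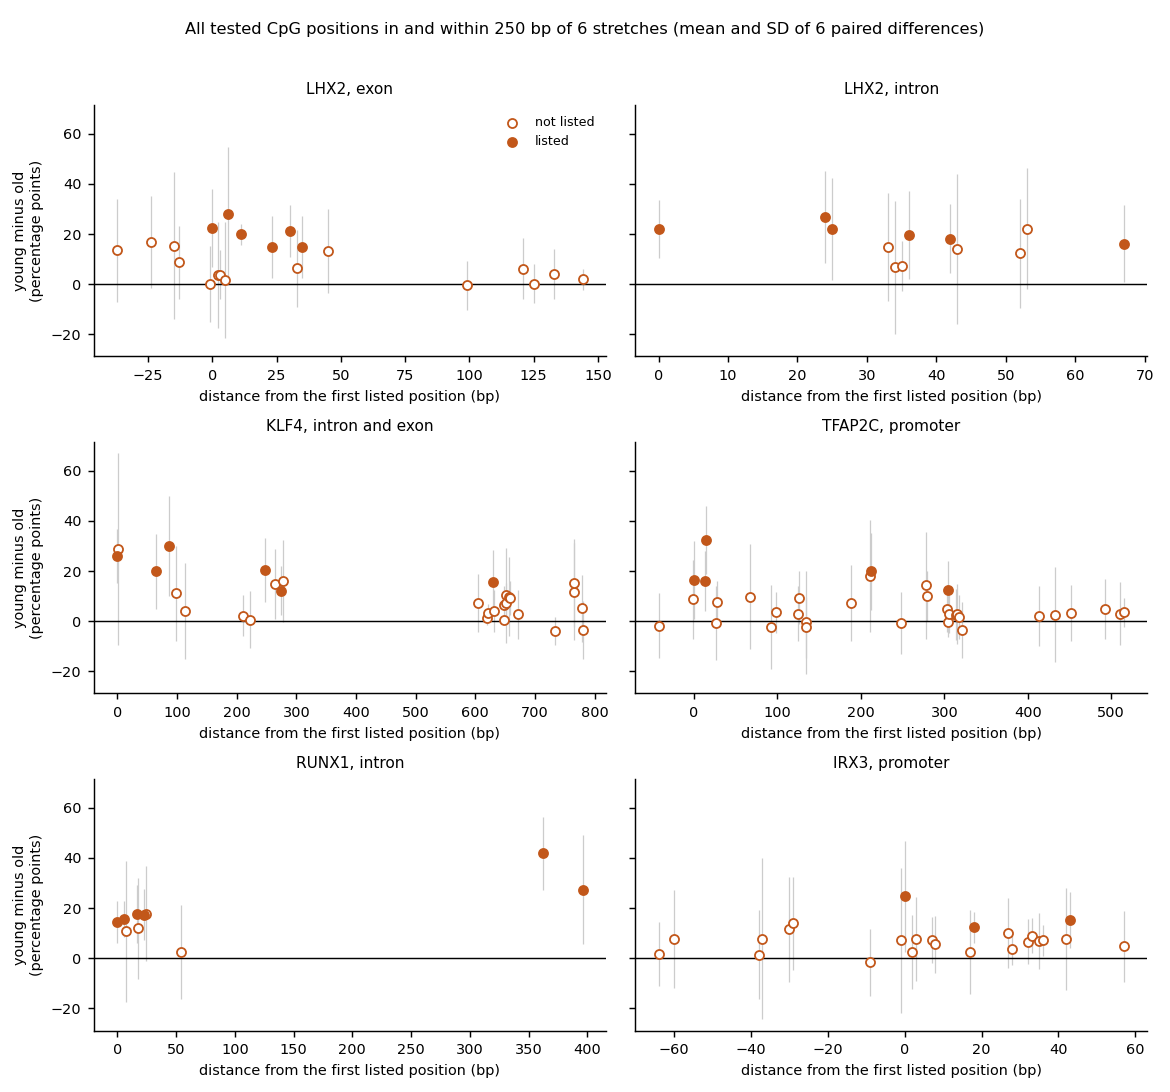
Young minus old difference (percentage points, vertical axis, mean with SD of 6 paired differences) at every tested CpG position in 6 stretches of the set, against the distance in bp from the first listed position. Filled points are listed and open points are not. All open points between the first and last filled points lie above 0 in LHX2, KLF4, RUNX1 and IRX3, and 10 of 16 do in TFAP2C.

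Iroquois, sine oculis and paired box factors pattern limb, kidney, eye and face. IRX3 had 3 promoter sites within 44 bp on chromosome 18, 12.3 to 24.7 points higher in young cultures, and the 12 unlisted positions among them were all higher in young cultures with a mean of 6.40 points. At 22696001 young cultures ran from 15% over 40% to 57% and old cultures from 7% over 8% to 27%. The means were 36.3% ± 16.3 and 11.7% ± 7.84 (SD, n = 6). Animal 5 went the other way, at 15% when young and 27% when old, and the groups overlapped through it. IRX6 had 1 promoter site, 30.5 points higher in young cultures.

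SIX2, which maintains kidney progenitors, had 2 sites on chromosome 11 where promoter and intron overlap. At 27262999 the lowest, median and highest ratios were 43%, 61.0% and 67% in young cultures against 10%, 20% and 36% in old cultures. The means of 56.8% ± 10.2 and 21.7% ± 12.3 (SD, n = 6) rest on 63 young and 58 old reads, and no old culture reached a young one. The second site, 76 bp away, was 22.3 points higher in young cultures in all 6 animals. Values given in full outside the fixed rule, here and for LHX2 at 95128362, RUNX1T1, TBX20 at 62203307, SOX5 at 86999654, FOXO3, FOXP2 and DLX4, were chosen after they were seen, for ages that did not overlap.

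SIX3, a forebrain and eye factor, had 3 sites, 10.2 to 14.8 points higher in young cultures. At 27203436 in an exon young cultures were at 0%, 17.0% and 33% (lowest, median, highest) and old cultures at 0%, 0% and 9%, with means of 17.2% ± 12.9 and 2.33% ± 3.83 (SD, n = 6). The groups overlapped at the low end, where animal 3 was at 0% in both ages. The partner strand differed by -1.33 points, and the merged strands by 5.62 points, below the 10-point minimum. The 3 unlisted positions between the exon sites averaged 0.0556 points.

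PAX6, the eye and pancreas regulator, had 5 sites in CpG islands on chromosome 15, 4 higher in young and 1 in old cultures. At 63385631 in its promoter young cultures ran from 17% over 49.5% to 83% and old cultures from 0% over 21% to 50%, with means of 48.3% ± 24.5 and 22.3% ± 16.2 (SD, n = 6). Animal 4 was slightly lower when young and the groups overlapped widely. The PAX6 site higher in old cultures, 63383012 in an intron, stood at 4.67% in young and 23.0% in old cultures, 18.3 points apart. PAX3, a factor of muscle progenitors and neural crest, and PAX9, a factor of teeth and palate, had 1 site each, 16.5 and 10.8 points higher in young cultures.

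NK homeobox factors mark thyroid, lung, pancreas, heart and axial skeleton, and OTX1 the forebrain. NKX2-2 had 2 promoter sites 11 bp apart on chromosome 13, 18 and 23.2 points higher in young cultures in all 6 animals. At 41109321, with 11 to 32 reads per culture, young cultures ran from 15% over 28.5% to 44% and old cultures from 0% over 0% to 22%. The means were 30.2% ± 10.5 and 7% ± 10.9 (SD, n = 6), and the paired differences had an SD of 5.64 points. Old cultures 1 and 4, the ones with methylated reads, came from the animals with the highest young ratios. The partner strand, unlisted, differed by 8 points and the merged strands by 15.4 points.

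NKX3-2, which drives cartilage of the spine, had 4 sites on chromosome 6. At 113625867 in an intron the lowest, median and highest ratios were 44%, 65.5% and 100% in young cultures against 25%, 31.0% and 62% in old cultures, 67.7% ± 23.0 against 36.5% ± 14.0 (SD, n = 6). Animal 2 was higher when old and the groups overlapped. The other NKX3-2 sites were near 0% in 1 age: 113625241 had 0 of 107 old reads methylated, which allows up to 2.80%, and was 10.3 points higher in young cultures, while 113625209, 32 bp away, was 12.2 points higher in old cultures and 113627277 in the promoter 10.7 points. With the strands merged, 113625241, 113625209 and 113627277 differed by 4.32, -6.09 and -5.15 points (young minus old), below the 10-point minimum.

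NKX2-5, the heart factor, had the only site more methylated in old cultures with at least 10 reads in every culture. At 4820314 on chromosome 20 young cultures ran from 0% over 20% to 45% and old cultures from 14% over 28% to 46%. The means of 17.7% ± 16.7 and 29.3% ± 14.0 (SD, n = 6) differed by 11.7 points and the groups overlapped over most of their range. Animal 6 was the highest in both ages, and the 23 unlisted neighbours within 250 bp averaged -0.884 points (young minus old). NKX2-1 and NKX6-1 had 1 intron site each, 10.2 and 11.8 points higher in young cultures.

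OTX1 had 3 promoter sites that were highly methylated in young cultures (76.0% to 89.8%) and 19.3 to 29.5 points lower in old cultures, and 1 intron site 13.0 points higher in old cultures. At 61479049 on chromosome 11 young cultures were at 67%, 78.5% and 100% (lowest, median, highest) and old cultures at 20%, 54.5% and 75%. The means were 81.5% ± 12.5 and 52.0% ± 20.2 (SD, n = 6), the groups overlapped, and all 6 animals were higher when young. Both unlisted positions between this site and its listed neighbour at 61478970 were higher in young cultures, by 24.4 points on average.

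MEIS and PBX proteins are TALE homeobox cofactors of HOX proteins. MEIS1 had 3 intron sites on chromosome 11, 12.3 to 29.8 points higher in young cultures. At 64847432 young cultures ran from 18% over 50.0% to 83% and old cultures from 0% over 18.5% to 33%, 49.8% ± 21.7 against 20% ± 12.3 (SD, n = 6), on a mean coverage of 7.5 reads, the lowest of the 116 positions. Young culture 3 lay within the old range. The partner strand differed by -1.17 points, and the merged strands by 11.3 points.

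MEIS2 had sites in both directions within its introns. At 32725799 on chromosome 10, the best covered of them with a mean of 25.3 reads, young cultures were at 49%, 59.0% and 69% and old cultures at 35%, 42.5% and 50% (lowest, median, highest). The means of 60.0% ± 6.99 and 43.0% ± 6.75 (SD, n = 6) differed by 17.0 points in the same direction in all animals, and the groups overlapped by 1 point through young culture 5. The other MEIS2 sites were 10.5 and 13.2 points higher in old cultures. PBX3 was 23.3 points higher in young cultures and both PBX4 sites 21.7 and 20.2 points higher in old cultures, all in introns.

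T-box factors specify limbs, heart and mesoderm. TBX20, a heart factor, had 2 exon sites on chromosome 4. At 62203267, with 14 to 40 reads per culture, young cultures ran from 25% over 53.5% to 86% and old cultures from 27% over 33.0% to 50%, with means of 56.8% ± 21.1 and 34.8% ± 8.04 (SD, n = 6). Animal 4 had the lowest ratio in both ages and did not share the direction. The partner strand of this CpG went the other way, with -6.67 points, and with merged strands the difference fell from 22.0 to 7.30 points. At 62203307 the ranges were 43% to 86% in young and 11% to 36% in old cultures, without overlap, and the difference was 32 points.

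TBX4 and TBX5, which act in hind limb and fore limb, had 1 intron site each, 21.8 and 25 points higher in young cultures. TBX6, a mesoderm factor, was 21.3 points higher in old cultures in an exon, in all 6 animals. TBXAS1 encodes thromboxane synthase, an enzyme, and was caught by its symbol. Its intron site at 104195510 had ratios of 13%, 50.0% and 73% in young cultures against 8%, 23.0% and 25% in old cultures (lowest, median, highest), 47.0% ± 22.3 against 19.5% ± 6.89 (SD, n = 6). Animal 5 was lower when young, and the groups overlapped.

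SOX5 acts in cartilage with other SOX proteins and had 3 sites on chromosome 5, all more methylated in old cultures. At 86999655 in an exon young cultures ran from 20% over 69.0% to 88% and old cultures from 75% over 93.0% to 100%, with means of 61.8% ± 23.9 and 90.7% ± 10.8 (SD, n = 6). The other strand of this CpG, 86999654, was listed too, with 67% to 83% in young and 92% to 100% in old cultures and no overlap. All 6 animals were higher when old on both strands, and both had even coverage in every culture. SOX30, a factor of sperm formation, was 11.5 points higher in young cultures.

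Forkhead genes gave 15 sites in 11 genes, 9 higher in young and 6 in old cultures. FOXO3, a stress response factor controlled by insulin signalling, held the largest difference of the set. At 42009933 in an exon on chromosome 9 the lowest, median and highest ratios were 71%, 88.0% and 100% in young cultures against 20%, 40.0% and 58% in old cultures. The means of 88.0% ± 11.3 and 38.5% ± 15.5 (SD, n = 6) differed by 49.5 points on a mean coverage of 13.6 reads, without overlap. The 2 unlisted neighbours within 250 bp averaged 24.3 points in the same direction. A second FOXO3 site in an intron was 12.2 points higher in old cultures in all 6 animals.

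FOXP1 had the largest difference toward old cultures, on both strands of 1 intron CpG on chromosome 22. At 30514334 young cultures ran from 0% over 17.0% to 25% and old cultures from 10% over 53.5% to 80%, 13.2% ± 10.6 against 51.5% ± 23.1 (SD, n = 6). Animal 6 went the other way, at 25% when young and 10% when old. The minus strand at 30514335 was 22.3 points higher in old cultures, and another FOXP1 site, 30633974, was 10.2 points higher in young cultures.

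The remaining forkhead genes had 1 site each apart from FOXN1. FOXC2 (lymphatic vessels, 27.7 points), FOXJ1 (motile cilia, 21.2 points), FOXL2 (ovary, 11.3 points), FOXN3 (23.8 points), FOXN4 (retina, 24 points) and FOXP2 (21.2 points) were higher in young cultures. FOXA1, a pioneer factor of endoderm (14.7 points), and FOXH1, a partner of SMAD proteins (21 points), were higher in old cultures. At the FOXP2 exon site the groups did not overlap, with 75% to 86% in young and 38% to 67% in old cultures.

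The listed GATA sites split by gene. GATA3, which acts in T cells and hair follicles, had 2 sites 32 bp apart in its promoter, 20.3 and 19.0 points higher in young cultures in all 6 animals. GATA2, a blood progenitor factor, and GATA5, a heart and gut factor, had 2 sites each, all 10.8 to 14.5 points higher in old cultures. Among the last families, DLX4 had 2 intron sites 12.3 and 19.2 points higher in young cultures, the latter at 12% to 38% in young and 0% to 8% in old cultures without overlap, and ZIC2 had 1 promoter site 14.0 points higher in young cultures.

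**Figure D3:**
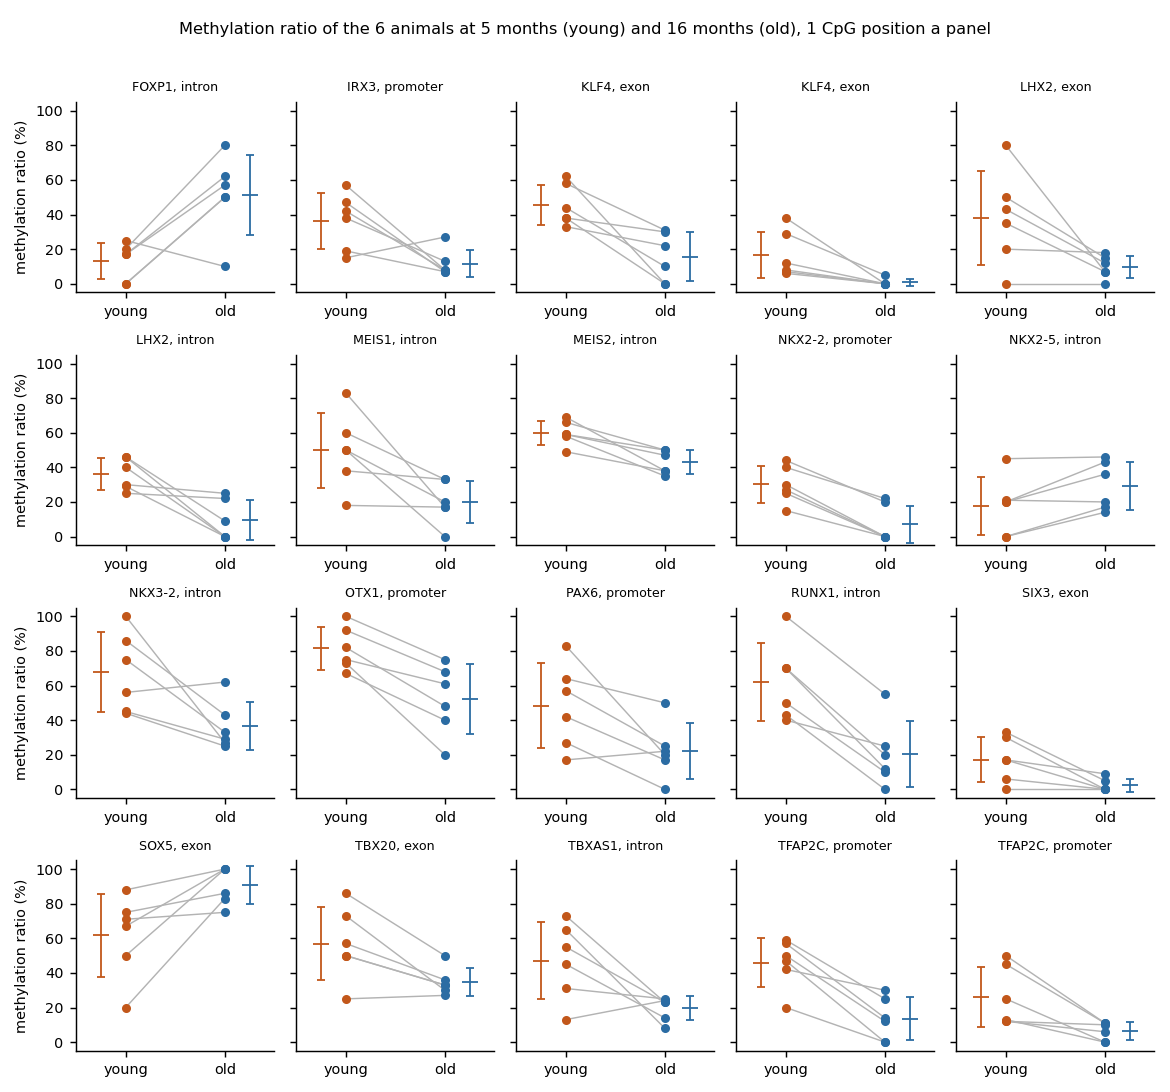
Methylation ratio (%, vertical axis) of each heifer when young (5 months) and old (16 months) at the 20 positions given in full by a fixed rule, 1 position a panel, with a line joining the cultures of an animal and bars for mean ± SD (n = 6). Young cultures are higher in 17 panels, and FOXP1, NKX2-5 and SOX5 are higher in old cultures. The groups overlap in 17 panels and stand apart at both KLF4 positions and at 1 TFAP2C position.

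By class, promoters held 39 sites in 23 genes, and young cultures were higher at 32 of them (82.1%). The counts were 23 of 28 (82.1%) in exons and 42 of 62 (67.7%) in introns, with 13 sites in more than 1 class. For the listed sites of other genes the share was 67.4% over all classes together, so the intron share was close to it. LHX2 gave 6 and KLF4 4 of the exon sites. By gene, sites higher in young and in old cultures were in 18 and 6 genes for promoters, 12 and 4 for exons and 24 and 16 for introns. CpG islands held 73 of the 116 sites (62.9%), beside 31.1% of the listed sites of other genes and 26.1% of the list. Young cultures were higher at 83.6% of the island sites and at 60.5% of the others. Of the 1335 listed island sites of other genes, 911 were higher in young cultures. Genes with promoter sites only higher in old cultures were FOXH1, GATA2, NKX3-2, RUNX1 and RUNX1T1, and FOXN1 had promoter sites in both directions.

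Many sites had a low level in 1 age. Among the 87 sites higher in young cultures, 28 (32.2%) in 18 genes had an old mean of at most 5%, and 27 of them lay in CpG islands. Among the 29 sites higher in old cultures, 12 (41.4%) in 10 genes had a young mean of at most 5%, 8 of them in islands. The more methylated age stayed between 10.3% and 26.2% in the first group. All old cultures were at 0% at 5 sites, in FOXL2, KLF4, LHX3, NKX3-2 and TFAP2C, with 55 to 107 old reads per site, which allow ratios of up to 2.80% to 5.45%.

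**Figure D4:**
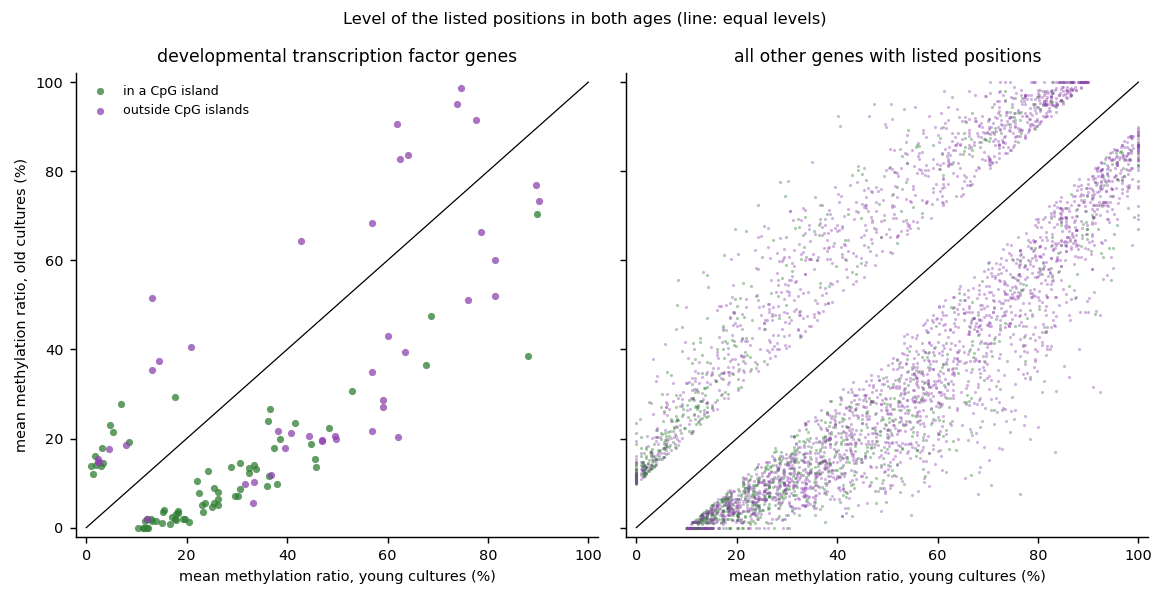
Mean methylation ratio in old cultures (%, vertical axis) against that in young cultures (%, horizontal axis) at the 116 listed positions of the transcription factor genes (left) and the 4298 listed positions of other genes (right), with a line of equal levels. The empty band along the line comes from the 10-point minimum of the list. The points on the left gather at low levels, with median means of 29.2% in young and 14.6% in old cultures.

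The cultures of each animal showed the directions to a similar degree, which follows from the choice of sites. They were kept for a low P over these same 6 paired differences and sorted by the sign of their mean. At the 87 sites more methylated in young cultures, 75 to 83 were higher in the young culture of any given animal, with median differences of 15 to 20 points. At the 29 sites of the other direction, 24 to 27 were higher in the old culture of any given animal. All 6 animals went 1 way at 55 sites (47.4%), beside 42.8% of the list and 1.09% of tested positions. The mean ratio over the 116 positions was 31.5% to 35.8% in young and 20.6% to 25% in old cultures.

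Positions that the list left out next to its sites were also described. Of 106 sites with unlisted tested positions within 250 bp, 93 (87.7%) had a mean difference of these neighbours in their own direction, beside 78.2% for other genes. The share was 78 of 83 (94.0%) at sites higher in young cultures and 15 of 23 (65.2%) at sites higher in old cultures, against 82.9% and 68.5% for other genes. The median neighbour difference, 4.83 points in the direction of the site, was far below that of the listed sites. The other strand of the CpG was tested at 58 sites and went the same way at 43 (74.1%), beside 74.9% for other genes. Among the 50 partners not listed, 35 went the same way, beside 70.2% of those of other genes. At sites higher in young cultures, 29 of 37 unlisted partners did so (78.4%), against 73.6% for other genes. At sites higher in old cultures, 6 of 13 did so (46.2%), against 62.8% for other genes. With the reads of both strands merged, 2 of the 58 sites changed sign, MEIS2 at 32863121 among them (from -10.5 to 0.848 points), 26 kept their sign with a difference over 1.5 times smaller, and 24 fell below 10 points, among them the sites of FOXA1, KLF10, LHX9 and NKX2-1 and both listed RUNX3 sites. Neighbours share fragments and reads with the sites, and close sites counted many of the same neighbours again. The median number of neighbours per site was 6, against 4 for other genes. The part of all this in the shares above was not tested.

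Stretches with at least 2 listed sites no more than 500 bp apart numbered 23 in 22 genes. In 17 of them young cultures were higher at all 54 listed sites and at 71 of the 88 unlisted positions between them. The 4 stretches with more methylation in old cultures, in FOXP1, PBX4, RUNX1T1 and SOX5, held 8 listed and 1 unlisted position. The FOXN1 and NKX3-2 stretches held both directions.

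The edge of the list ran through these regions. Just inside it, 10 sites differed by 10 to less than 11 points. Of the 848 tested positions within 250 bp of a site that were not themselves in the set, 102 differed by at least 10 points, up to 28.8, without being listed, 90 of them with the sign of the nearest site. Another 10 had a P below 0.05 and a difference below 10 points, the largest being 9.33.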

How the data were processed

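The authors' pipeline trimmed the reads, aligned them to bosTau8 as a non-directional library, kept unique alignments and counted both mates where they overlapped. The submitters' processing notes name CASAVA, FastQC 0.11.1, Trim Galore 0.3.7 and Bismark 0.13.1. For each position and strand the authors deposited the fraction of methylated reads (the methylation ratio, 2 decimals, shown here as percent) and the read count behind it, with no normalization and at least 5 reads in every culture. They also deposited a list of positions with P below 0.05 and annotation to promoters, exons, introns and CpG islands. Its columns of differences and p-values hold the authors' comparison and were not used beyond membership of the list. The labels do not use the letters in the column names, so letters were matched to ages through the methods. Labels and methods differ on the restriction enzymes and on the size selection gel.

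The paired test of the methods was refitted here at all 838705 positions, strands apart (P below 0.05, difference of at least 10 points, 0.05 for Benjamini-Hochberg adjustment). It was run in Python 3.11.15 with numpy 2.4.6, pandas 2.3.3 and scipy 1.17.1, drawn with matplotlib 3.10.9, with limma 3.58.1 in R 4.3.3 as an alternative, and was first tested on simulated data. Cultures were paired by animal. Deviations from the age means had a median correlation of 0.0461 within animals (0.000222 to 0.105, 6 pairs). It was -0.0103 between animals (-0.0419 to 0.0501, 30 pairs). These values are all small and their ranges overlap, so they say little about the matching. Members, gene lists and alternatives were chosen with earlier results of these data known. Values are given in full for the largest difference of each gene with 3 or more sites and for the 6 largest per direction with at least 10 reads in every culture, 1 per gene (7 positions met the last rule, with 1 toward old cultures). Positions count from 1. All 53 symbols were found in a RefSeq gene table of ARS-UCD2.0, whose coordinates were left aside because the build differs. No genome of bosTau8 was used here, so no sequence is shown. Counting limits cover read sampling only, and reads are not independent molecules. Alternatives are described at the end. Cytokine and expression data were not analysed here, and 1 gene of the set enters the counts but is not reported here by itself.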

Additional observations from a re-analysis of the deposited data

Results flagged for a closer look

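Among the 20 positions given in full, each age group of 6 cultures was checked for a culture far from the others (Dixon's ratio of gap to range above its critical value), 40 groups in all, and 2 stood out. Chance flags about 1 in 20 groups. At 22696001 in the IRX3 promoter, old culture 5 was at 27% while the next old culture was at 13%, a gap of 0.7 of the range. At 98846540 in a KLF4 exon, old culture 4 was at 5% and all other old cultures at 0%, the whole range, which rests on 1 methylated read.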

How the results depend on the processing

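Merging the strands of a CpG brought the median size of all sites from 18.5 to 15 points. Of the 20 positions chosen by the fixed rule none changed sign, but 6 of the 14 with a tested partner became over 1.5 times smaller: TBX20 at 62203267 (7.30 points), SIX3 at 27203436 (5.62), MEIS1 at 64847432 (11.3), LHX2 at 95128357 (15.9), KLF4 at 98846540 (10.3) and NKX2-2 at 41109321 (15.4). NKX2-5 at 4820314 went to -8.71 points. Counts depended on the settings. With at least 10 reads in every culture the paired test called 2901 positions and 16 of the sites, 15 higher in young cultures, and with at least 20 reads 376, 0 and 0. A minimum of 25 points gave 3275, 21 and 19, no minimum 24094 positions, and Benjamini-Hochberg adjustment 0, 0 and 0. A quasi-binomial model on reads called 72 of the sites. Without 1 animal, 67 to 77 sites were called, 51 to 59 of them higher in young cultures, with fewer samples in each fit. The sign without 1 animal is fixed by the P limit of the list and is no sign of stability. No replicate block (an unpaired test) gave 16043 positions, 100 sites and 75 higher in young cultures (75%), so the block moved no count by over 1.5 times. Of the sites, 75% were higher in young cultures, 76.1% without TBXAS1 and RUNX1T1, and, chosen after seeing the data, 77.2% without sites even in all cultures and 72.1% without LHX2. No percentage could be given where 0 sites were called. Read number limits 1 ratio: only 16 sites had 10 reads in every culture.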

Other observations

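Other developmental regulators, whose symbols the rule did not take, were described from a list of 173 genes, also put together with earlier results known. Some belong to the families above by protein (EOMES and TBR1 to the T-box, ISL2 and LMX1A to the LIM homeobox genes). The authors' list held 144 sites in 53 of them, 100 (69.4%) higher in young and 44 higher in old cultures, with 92 (63.9%) in CpG islands and a median size of 20.2 points. By gene, 31 had sites only higher in young cultures, 8 only sites higher in old cultures and 14 both.

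DMRT2, a factor of the early muscle and skin segments of the embryo, had 11 intron sites on chromosome 8, all higher in young cultures by 21.5 to 46.2 points. TWIST2, a mesenchymal factor of the dermis, had 10 sites higher in young and 2 in old cultures, and NR2F1, a nuclear receptor of neural crest and brain, 8 and 1. Clusters toward old cultures were seen as well. EBF2, which acts in fat and bone precursors, had 13 intron sites on chromosome 8, all higher in old cultures, with differences from -47.2 to -14.3 points. OSR2, a zinc finger factor of palate and limb, had 7 sites on chromosome 14, from -49.0 to -29.7 points, 5 of them in its promoter. In OSR2 at 67543038, old cultures stood at 67.0% and young cultures at 19.7%, with an SD of 13.2 points over the 6 paired differences. This was the smallest SD in OSR2, and the other sites had SDs of 27.1 to 41.6 points. The other strand of this CpG, 67543037, differed by -43.7 points with an SD of 41.6. These genes were named after their values were seen, and sites of 1 gene share fragments.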
